A study of Mus musculus with 6 samples.

Results

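Nwd2, Prss12, Ddn, Snhg11 and Nrgn were the 5 genes with the largest decreases in Fmr1-KO relative to WT cortical neurons among the 10763 genes whose level averaged 10 CPM or more over all libraries, where CPM is a gene's count scaled to the size of its library. The ranking took only genes whose WT and Fmr1-KO values did not overlap, so the separation of the genotypes in the 5 genes is part of how they were chosen. They were drawn from a table of 55367 gene names, of which 16976 had enough counts to be tested. RNA-seq was performed on 6 libraries, 3 from WT mice and 3 from Fmr1-KO mice. Both genotypes were in the C57BL/6J background, and the Fmr1-KO mice lack the fragile X protein FMRP, an RNA-binding protein abundant in neurons. Cortex was taken from pups at postnatal day 1 (P1), dissociated, and kept 2 days in vitro in serum-free neuronal medium. According to the study's methods, astrocytes carrying the ACSA2 surface antigen and myelin were removed with microbeads before plating. The comparison of genotypes served the study's question of how transcripts, above all targets of nonsense-mediated mRNA decay (NMD), change when FMRP is missing. The study calls the samples independently derived, but the labels name neither litter, sex nor culture. The adjusted P values below weigh the genotype difference against the spread among the 3 libraries of each genotype. What that spread holds is not known.

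Total counts ranged from 33431272 to 35126207 in WT and from 30348556 to 34516970 in Fmr1-KO. Fmr1 itself was at 113.4 ± 4.50 CPM in WT and 57.4 ± 3.67 CPM in Fmr1-KO (SD, n = 3 each), so 50.6% of the WT level remained in the libraries labelled Fmr1-KO (log2 fold-change −0.98, SE 0.04, adjusted P = 2.25e-13). Across all tested genes 3725 (21.9%) were called lower and 3506 (20.7%) higher in Fmr1-KO, at an adjusted P under 0.05, and the median log2 fold-change of tested genes was 0.01. The 5 genes were picked by this same contrast, so their differences are given here as descriptions, with no test.

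Several of the 5 genes have known roles in the parts of a neuron that mature after birth. Nrgn encodes neurogranin, a small postsynaptic protein that binds calmodulin when calcium is low and releases it when calcium rises or when protein kinase C phosphorylates it. Ddn encodes dendrin, a protein of dendrites and postsynaptic sites that is also made by kidney podocytes. The mRNAs of both genes are known to be carried into dendrites. Prss12 encodes neurotrypsin, a secreted serine protease that cleaves agrin and has been linked to intellectual disability in humans. Nwd2 encodes a large protein with NACHT and WD repeat domains whose function in neurons is not well known. Snhg11 is a host gene of small nucleolar RNAs and is abundant as a spliced RNA in neurons.

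Nrgn was at 55.2, 61.3 and 60.0 CPM in the 3 WT libraries and at 9.16, 7.84 and 9.77 CPM in the 3 Fmr1-KO libraries. The lowest WT library stood 5.65 times above the highest Fmr1-KO library, and the means were 58.8 ± 3.19 and 8.93 ± 0.988 CPM (SD, n = 3 each), a 6.59-fold difference (log2 fold-change −2.72, SE 0.07). Fmr1-KO replicate 2 was the lowest of all libraries for this gene. Nrgn lies at chr9:37544492-37552904 on the minus strand of GRCm38, with 8413 bases from end to end and a coding sequence of 78 codons.

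The calmodulin-binding part of neurogranin is the IQ motif, which it shares with, among others, the small proteins of Pcp4 and Pcp4l1. The coding stretch around the motif is printed for the 3 genes because their RNA levels are compared below. Capitals mark the 33 bases of the motif and the strand is the coding strand, from GENCODE M21 transcripts on GRCm38.
Nrgn, codons 29 to 47: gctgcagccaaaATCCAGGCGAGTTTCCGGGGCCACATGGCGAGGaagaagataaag
Pcp4, codons 42 to 60: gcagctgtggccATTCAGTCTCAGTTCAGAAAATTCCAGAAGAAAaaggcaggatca
Pcp4l1, codons 48 to 66: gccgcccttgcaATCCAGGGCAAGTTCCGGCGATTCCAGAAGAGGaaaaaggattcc
Of the 33 motif bases, 21 were the same in Nrgn and Pcp4l1 and 14 in Nrgn and Pcp4.

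Ddn, the other gene with a dendritic mRNA, was at 29.5, 29.8 and 29.1 CPM in WT and at 3.41, 3.01 and 3.39 CPM in Fmr1-KO. These were the tightest groups of the 5 genes, with a coefficient of variation of 1.14% in WT and 7.02% in Fmr1-KO. The lowest WT value stood 8.52 times above the highest Fmr1-KO value, and the means, 29.4 ± 0.335 and 3.27 ± 0.230 CPM (SD, n = 3 each), differed by 9.01-fold (log2 fold-change −3.17, SE 0.08). Ddn spans chr15:98803777-98809490 on the minus strand and encodes 710 codons.

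Prss12, the secreted protease, was at 17.7, 20.1 and 18.7 CPM in WT and at 1.94, 1.21 and 1.75 CPM in Fmr1-KO. The nearest WT and Fmr1-KO libraries were 9.13 times apart. The means were 18.8 ± 1.23 and 1.63 ± 0.379 CPM (SD, n = 3 each), an 11.5-fold difference (log2 fold-change −3.52, SE 0.11). The counts behind the Fmr1-KO values were 63, 37 and 61, so counting error alone is sizeable there. With a mean of 10.2 CPM over the 6 libraries, Prss12 passed the minimum of 10 CPM only narrowly.

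Nwd2 had the largest decrease of all: 23.1, 23.7 and 26.2 CPM in WT against 1.81, 1.31 and 2.33 CPM in Fmr1-KO. The means were 24.3 ± 1.64 and 1.82 ± 0.511 CPM (SD, n = 3 each), so the Fmr1-KO level was 7.48% of the WT level, a 13.4-fold difference (log2 fold-change −3.72, SE 0.11). Its Fmr1-KO libraries varied most among the 5 genes, with counts of 59, 40 and 81 and a coefficient of variation of 28.1%, yet the nearest WT and Fmr1-KO libraries were still 9.91 times apart. Nwd2 is the longest of the 5 genes, 161445 bases at chr5:63649102-63810546 on the plus strand, longer than 92.5% of tested genes, and encodes 1742 codons.

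Snhg11, the only one of the 5 whose main product is a noncoding RNA in RefSeq, was at 61.7, 58.3 and 56.3 CPM in WT and at 7.69, 10.03 and 9.02 CPM in Fmr1-KO. The means were 58.8 ± 2.76 and 8.91 ± 1.17 CPM (SD, n = 3 each), with a gap of 5.61 times at the nearest pair (log2 fold-change −2.72, SE 0.07). Fmr1-KO replicate 2 had the highest Snhg11 level of the 3 Fmr1-KO libraries, whereas the same library had the lowest level of Nwd2, Prss12, Ddn and Nrgn. GENCODE M21 classes Snhg11, at chr2:158375638-158386145 on the plus strand, as protein coding with a short open reading frame of 87 codons. The small nucleolar RNAs annotated within its span, Gm25129 and Gm25187, gave at most 2 counts in any library of these polyA-selected preparations. Counts over exons by gene name do not separate spliced from unspliced Snhg11 RNA.

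**Figure D1:**
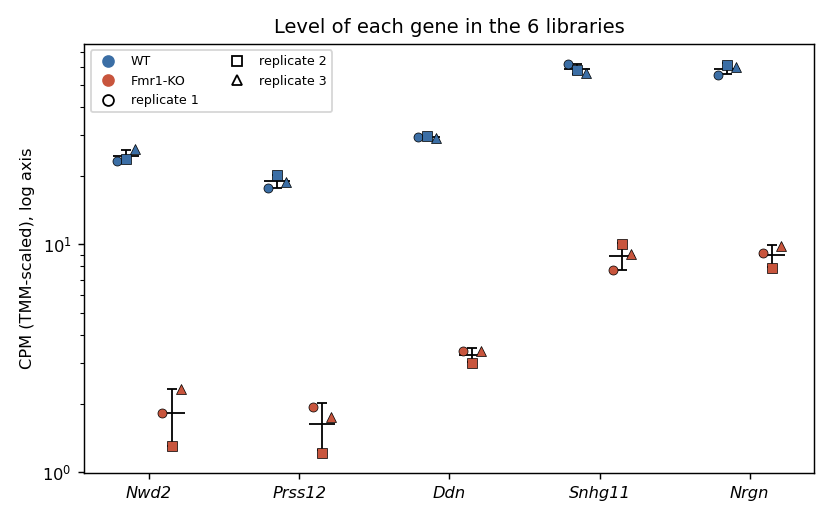
Level of each of the 5 genes in the 6 libraries, in TMM-scaled CPM on a log axis, with WT in blue and Fmr1-KO in red, a marker shape for each replicate number, and the mean and SD (n = 3) as bars. The separation of the genotypes was a condition of the choice, and its size ran from 5.61 times at the nearest pair for Snhg11 to 9.91 times for Nwd2.

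The genes just outside the rule were Sst and Npy, neuropeptides of GABAergic interneurons, Necab1, a calcium-binding protein, Slc17a7, the vesicular glutamate transporter of cortical excitatory neurons, and Met, a receptor tyrosine kinase of developing projection neurons. Sst stood nearest, at 43.6 CPM in WT and 7.53 CPM in Fmr1-KO (log2 fold-change −2.53), and Met at rank 10 was at 34.1 and 7.45 CPM (log2 fold-change −2.20). Necab1, Slc17a7 and Npy were between them, at −2.50, −2.45 and −2.43. The step from Nrgn to Sst was smaller than those from Prss12 to Ddn and from Ddn to Snhg11. Of the 6213 tested genes under 10 CPM, 14 had a lower log2 fold-change than Nrgn and 4 a lower one than Nwd2. The 5 genes therefore do not lead among all tested genes. Under a minimum of 5 CPM, with the same condition of no overlap, they were still the 5 largest decreases. Under a minimum of 20 CPM only 2 of the 5, Snhg11 and Nrgn, would remain.

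**Figure D2:**
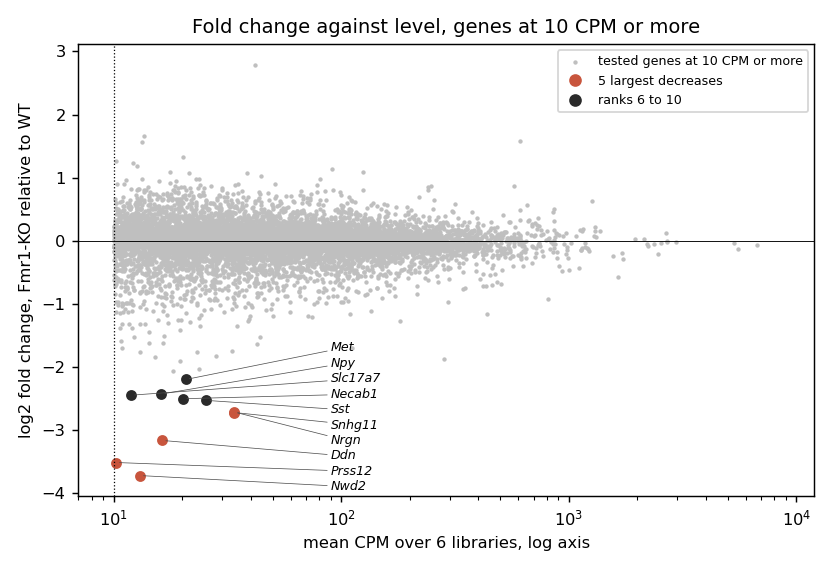
Log2 fold-change in Fmr1-KO relative to WT against the mean CPM over the 6 libraries (log axis), for the 10763 tested genes with at least 10 CPM, each a grey point. The 5 genes are in red, from −3.72 (Nwd2) to −2.72 (Nrgn and Snhg11, whose points coincide), the genes at ranks 6 to 10 are in black, and the dotted line marks 10 CPM.

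Levels can be compared between genes only after allowing for transcript length. The length used here was that of all annotated exons of a gene joined over its transcripts, which can exceed that of the RNA present. For Snhg11 it was 8521 bases of a gene of 10508 bases with 5 annotated transcripts. Its per-kilobase level, and its place beside Ddn and Prss12, depend on this choice. Per kilobase of exon, Nrgn was the highest of the 5 genes in WT at 40.5 ± 2.20 CPM per kb, a level above that of 93.4% of tested genes. Ddn at 7.79 ± 0.0885, Prss12 at 7.24 ± 0.473 and Snhg11 at 6.90 ± 0.324 CPM per kb followed (SD, n = 3 each), and Nwd2 was lowest at 2.33 ± 0.157 CPM per kb. The WT values of Prss12 overlapped with those of both Ddn and Snhg11, so their order is within the spread, while the lowest Ddn library (7.70) was above the highest Snhg11 library (7.25).

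In Fmr1-KO the per-kilobase order changed in the middle: Nrgn at 6.14 ± 0.680, Snhg11 at 1.05 ± 0.138, Ddn at 0.865 ± 0.0607, Prss12 at 0.628 ± 0.146 and Nwd2 at 0.174 ± 0.0490 CPM per kb (SD, n = 3 each). Snhg11 and Ddn overlapped narrowly, with the lowest Snhg11 library at 0.902 and the highest Ddn library at 0.903 CPM per kb. Nrgn thus stayed above 55.0% of tested genes in Fmr1-KO, whereas Nwd2 stood above only 5.40% of them. None of the 5 genes was absent from the Fmr1-KO cultures, since the smallest count in any library was 37, for Prss12 in Fmr1-KO replicate 2.

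**Figure D3:**
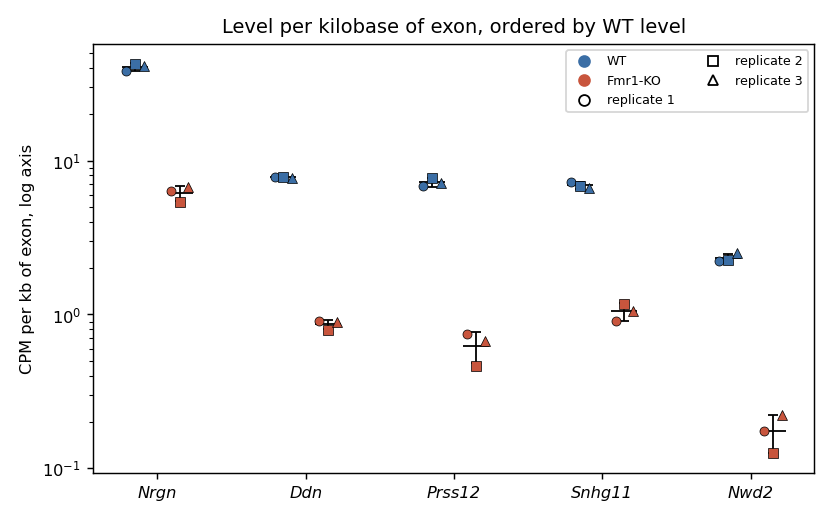
Level per kilobase of exon, joined over all annotated transcripts, of the 5 genes in each library (CPM per kb, log axis). Genes are ordered by the WT mean, with the mean and SD (n = 3) as bars. Nrgn is highest in both genotypes and Nwd2 lowest, and the middle 3 genes lie close together in WT, between 6.60 and 7.87 CPM per kb.

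The 5 genes lie on 5 chromosomes and differ widely in structure. Exon length ran from 1453 bases in Nrgn, longer than 9.72% of tested genes, to 10428 bases in Nwd2, longer than 92.2%. The study defined its list of 1027 NMD targets in N2A neuroblastoma cells, and states that targets of the cortical cultures absent from N2A cells would be missed. None of the 5 was on this list, to which 5.94% of tested genes belong. An annotated NMD transcript in GENCODE M21 exists for 2 of the 5, Nwd2 and Snhg11, and for 23.8% of tested genes. The 5 genes are too few to read anything from these shares, and counts summed by gene name do not separate isoforms.

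The genes on either side of each were read from the same test. Of the 10 nearest tested neighbours 1 was called lower, 0 were called higher and 9 were not called, against 21.9% lower and 20.7% higher over all tested genes. The gene called lower was Arf3, a small GTPase gene 40563 bases from Ddn, which went from 317.1 to 242.6 CPM (log2 fold-change −0.39, SE 0.03, adjusted P = 3.55e-09). On the other side of Ddn, Prkag1 at 3307 bases was at a log2 fold-change of 0.10 (adjusted P = 0.0576). Neighbours as close as 955 bases (Snhg8 beside Prss12, −0.12, adjusted P = 0.210), 1817 bases (0610040J01Rik beside Nwd2, 0.18, adjusted P = 0.258) and 2794 bases (Siae beside Nrgn, 0.07, adjusted P = 0.403) did not pass the test. Snhg17 and Ralgapb, the neighbours of Snhg11, were at −0.02 and −0.07 (adjusted P = 0.799 and 0.121).

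Gm9954, a gene on the opposite strand that overlaps the first bases of Nwd2 (chr5:63646170-63650894), was lower as well. Its counts were 157, 130 and 110 in WT and 23, 14 and 18 in Fmr1-KO, with no overlap (log2 fold-change −2.80, SE 0.20, adjusted P = 2.58e-10). The kit preserved strand and, by the study's methods, counting was reverse-stranded, so these reads were assigned apart from those of Nwd2. Antisense to Ddn, B130046B21Rik gave 8, 14 and 11 counts in WT and 6, 3 and 4 in Fmr1-KO, too few to be tested.

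**Figure D4:**
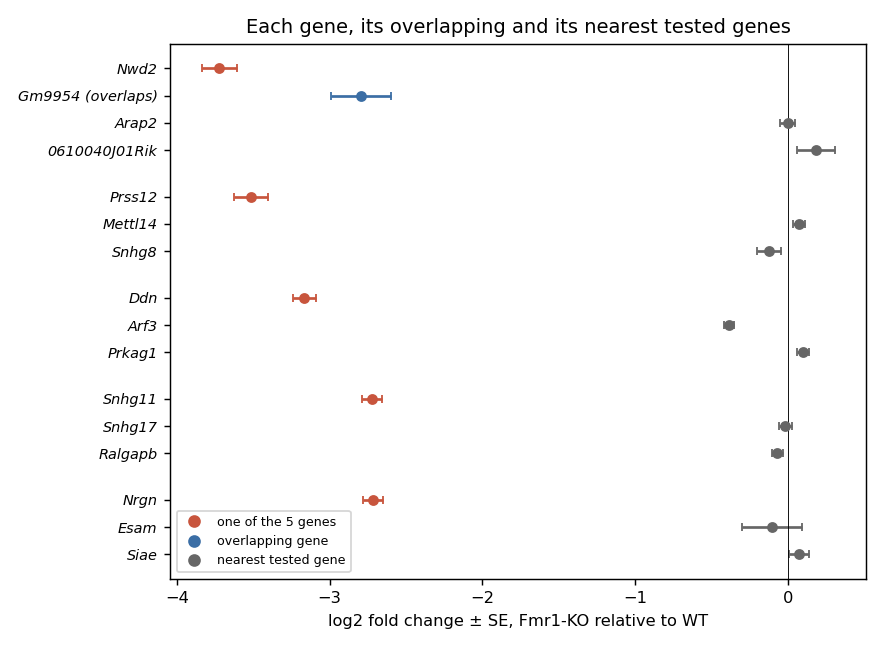
Log2 fold-change in Fmr1-KO relative to WT, with its SE, for each of the 5 genes (red), the tested gene overlapping Nwd2 (blue) and the nearest tested gene on each side (grey). Apart from Gm9954 at −2.80 and Arf3 at −0.39, the genes around the 5 lie between −0.12 and 0.18.

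Sequence just upstream of the start is printed for the 4 genes that the promoter table holds, to show what kind of promoter each has. The stretches are from RefSeq on GRCm38.p6, on the strand of the gene, and capitals mark CG dinucleotides, the letters that are dense in CpG island promoters. Ddn was not in the table.
Nwd2, plus strand, chr5:63648952-63649101: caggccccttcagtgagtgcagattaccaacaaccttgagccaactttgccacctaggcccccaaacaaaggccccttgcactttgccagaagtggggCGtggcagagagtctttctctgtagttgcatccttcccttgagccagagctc
Prss12, plus strand, chr3:123446763-123446912: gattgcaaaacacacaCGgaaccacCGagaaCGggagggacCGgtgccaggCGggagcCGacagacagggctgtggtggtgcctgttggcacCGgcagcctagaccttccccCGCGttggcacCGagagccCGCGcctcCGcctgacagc
Snhg11, plus strand, chr2:158375488-158375637: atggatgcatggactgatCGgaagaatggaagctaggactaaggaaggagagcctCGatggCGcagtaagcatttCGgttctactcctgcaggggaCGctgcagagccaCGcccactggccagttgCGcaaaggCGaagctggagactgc
Nrgn, minus strand, chr9:37552905-37552995: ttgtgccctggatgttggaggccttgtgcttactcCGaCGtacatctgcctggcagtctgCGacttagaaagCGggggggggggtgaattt

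Nwd2 had 1 CG in its 150 bases and Prss12 had 13, so the 2 genes with the largest decreases were far apart in this respect. Over a window of 300 bases around the start, the ratio of observed to expected CG was 0.133 for Nwd2, above 18.4% of 32851 windows of the table. The same ratio was 0.674 for Prss12, 0.779 for Snhg11 and 0.709 for Nrgn, above 69.0%, 77.4% and 71.7% of windows.

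Letters of 6 common promoter motifs were searched on both strands of the same windows. The GC box GGGCGG, held by 35.7% of all windows, was found in Nrgn, and the E-box CAGCTG, held by 16.3%, in Snhg11. CCAAT, in 37.4% of windows, was found in Nwd2 and Nrgn. TGACG, part of the cAMP response element and in 20.8% of windows, TATAAA, in 13.6%, and CAGCACC, part of the RE1 element of neuronal genes and in 7.14%, were found in none of the 4. No motif was shared by all 4 genes.

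Paralogues and partners of the 5 proteins were read from the same test of all genes. This list and those below were chosen with earlier results of these data known, and some genes are on several lists. Their counts can be set beside the 21.9% called lower and 20.7% called higher over all tested genes. Of 15 listed genes 13 were tested, 7 were called lower and 3 higher, and the median log2 fold-change was −0.17 against 0.01 for all tested genes. Gap43, a growth cone protein that also binds calmodulin, fell from 390.7 to 200.1 CPM (log2 fold-change −0.97, SE 0.03, adjusted P = 1.06e-15). Pcp4l1, the nearer to Nrgn of the motifs printed above, was called lower (log2 fold-change −0.27, adjusted P = 0.00902), and the call was lost without Fmr1-KO replicate 2 (−0.17, adjusted P = 0.0660). Pcp4 did not pass (−0.11, adjusted P = 0.230). The log2 fold-change of Nrgn, −2.72, was below that of these 3 genes, a difference not tested because Nrgn was picked for its size.

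Agrn, the substrate of neurotrypsin, rose slightly from 449.0 to 502.2 CPM (log2 fold-change 0.16, adjusted P = 0.000170). Among other proteases and serpins of the brain's extracellular space, Serpini1 (neuroserpin), Serpine2, Plau (urokinase) and Plat (tissue plasminogen activator) fell, with log2 fold-changes of −0.49, −0.55, −0.55 and −0.17 (adjusted P = 8.70e-09, 1.26e-10, 0.00600 and 0.000896). Klk8, a kallikrein, had only 64 counts in all and lost its call without Fmr1-KO replicate 1 (log2 fold-change −1.29, adjusted P = 0.0116, and −0.98, adjusted P = 0.0721, without it). Prss12 itself was at −3.52, the value by which it was picked.

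Of the dendrin partners known from podocytes and synapses, Cd2ap rose (log2 fold-change 0.32, adjusted P = 5.28e-06), while Magi2 (−0.07, adjusted P = 0.144) and Wwc1 (−0.01, adjusted P = 0.779), which encodes KIBRA, did not pass. Nwd1, the paralogue of Nwd2, was at 66.4 CPM in WT and 72.7 CPM in Fmr1-KO (log2 fold-change 0.13, adjusted P = 0.0125). That call was lost without WT replicate 2 (0.11, adjusted P = 0.0551), Fmr1-KO replicate 1 (0.12, adjusted P = 0.0530) or Fmr1-KO replicate 2 (0.10, adjusted P = 0.0602). The log2 fold-change of Nwd1 stayed positive in each of these fits.

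Genes of calmodulin and calcium-dependent signalling, the pathway in which neurogranin acts, were called lower in 18 of 19 cases and higher in 0. The median log2 fold-change was −0.42. Over all tested genes 21.9% were called lower and 20.7% higher. Calm2 and Calm3, which encode calmodulin, fell with log2 fold-changes of −0.23 and −0.26 (adjusted P = 1.54e-06 and 1.41e-06). Adcy1, a calmodulin-activated adenylyl cyclase, fell from 256.0 to 105.4 CPM (−1.28, adjusted P = 3.19e-16). The kinase subunits Camk2b and Camk2a fell as well (−0.75 and −0.42, adjusted P = 6.23e-13 and 8.76e-09), and Camk2d was the gene that did not pass (−0.04, adjusted P = 0.429). The list ran from −1.28 to −0.04.

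Other mRNAs known to enter dendrites were read in the same way. Of 13 listed genes, 8 were called lower, 1 higher and 4 were not called, with a median of −0.24. The shares over all tested genes were 21.9% lower and 20.7% higher. Camk2a is on this list and on the calmodulin list. Kcna1, a potassium channel, and Shank1, a scaffold of the postsynaptic density, fell with log2 fold-changes of −0.73 and −0.56 (adjusted P = 2.49e-06 and 4.02e-11). Map2, the dendritic microtubule protein, fell slightly (−0.11, adjusted P = 0.00532), and Itpr1 (0.01), Gria1 (−0.07), Actb (−0.05) and Eef1a1 (0.00) did not pass. Arc was the gene called higher (log2 fold-change 0.34, adjusted P = 0.0209), but without WT replicate 1 (0.31, adjusted P = 0.0801), WT replicate 3 (0.31, adjusted P = 0.0655) or Fmr1-KO replicate 1 (0.21, adjusted P = 0.175) it did not pass. The list ran from −0.73 to 0.34. That Ddn and Nrgn lie below it follows from how they were picked.

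Genes that rise late in forebrain neurons were called lower in 23 of 25 cases and higher in 0, with a median of −0.76. The shares over all tested genes were 21.9% lower and 20.7% higher. Camk2a, Camk4 and Kcna1 are also on the lists above, so the counts of these lists are not independent. The members nearest to the 5 genes were Slc17a7 (−2.45) and Lamp5 (−2.43, at 2.82 CPM in WT and 0.519 CPM in Fmr1-KO). Mef2c, an activity-regulated transcription factor, fell from 446.7 to 121.2 CPM (−1.88, adjusted P = 1.36e-19), and so did Vsnl1, a calcium sensor (−1.84, adjusted P = 1.23e-12), and Icam5, an adhesion protein of dendrites (−1.68, adjusted P = 1.29e-08). Nefm, a neurofilament subunit, fell with a log2 fold-change of −1.35 (adjusted P = 1.72e-13). Chn1 (−0.08, adjusted P = 0.0567) and Nefh (−0.19, adjusted P = 0.381) did not pass.

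Genes of immature neurons, by contrast, were mixed, with 5 of 16 called lower, 8 higher and a median of 0.07. Among all tested genes the shares were 21.9% lower and 20.7% higher. Nhlh1 rose by a log2 fold-change of 1.17 and Igfbpl1 by 0.80, and the transcription factors Sox11 and Sox4 rose by 0.48 and 0.24 (adjusted P = 1.82e-06, 1.09e-13, 9.23e-11 and 5.99e-07). Stmn2, Tubb3 and Dpysl3, which serve growing axons, fell, at −0.65, −0.28 and −0.28 (adjusted P = 9.64e-13, 5.56e-06 and 1.14e-07). The list was thus not uniform, and Dcx, the migrating neuron marker, was at 0.08 (adjusted P = 0.0312) with a call that was lost without WT replicate 1 (0.09, adjusted P = 0.0643), WT replicate 3 (0.07, adjusted P = 0.133) or Fmr1-KO replicate 3 (0.06, adjusted P = 0.168).

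Other small nucleolar RNA host genes were mostly not called, as were most tested genes, of which 21.9% were called lower and 20.7% higher. Of 15 listed, 14 were tested, 2 were called lower (Snhg6 and Snhg4, each −0.29, adjusted P = 0.000340 and 0.00680), 1 higher (Snhg18, 0.45, adjusted P = 0.00244) and 11 were not called, with a median of −0.02. The lowest log2 fold-change of the group was −0.29. That Snhg11, at −2.72, lies below the group follows from how Snhg11 was picked. The number called higher was 3 without Fmr1-KO replicate 1, with Snhg1 (0.15, adjusted P = 0.0257) and Snhg20 (0.25, adjusted P = 0.0454) added, and 2 without Fmr1-KO replicate 3, with Snhg20 (0.26, adjusted P = 0.0404) added.

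**Figure D5:**
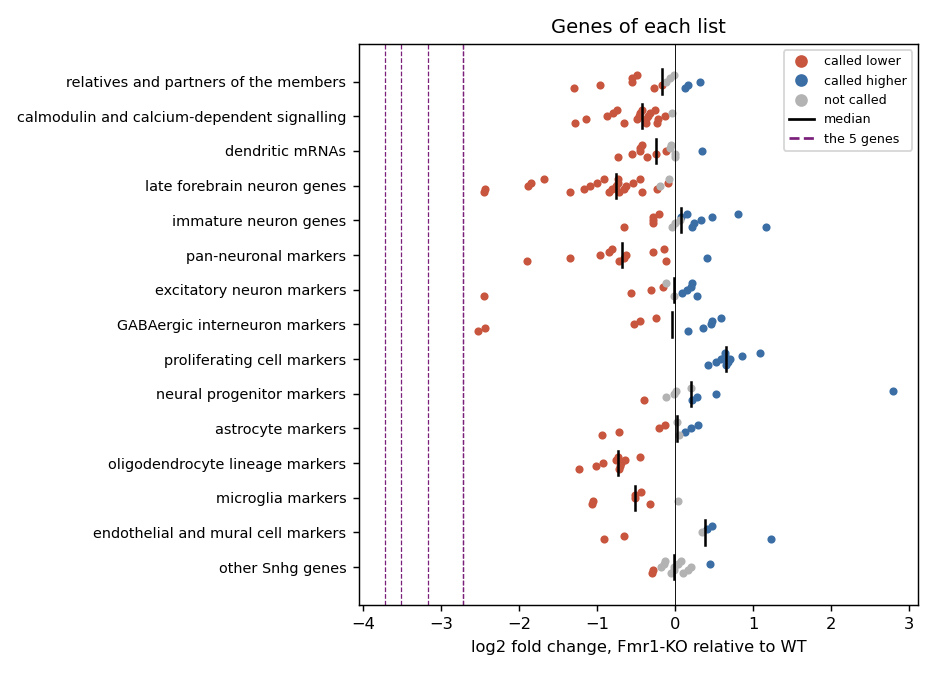
Log2 fold-change in Fmr1-KO relative to WT of the tested genes of each list, with genes called lower in red, called higher in blue and not called in grey, the list's median as a black bar, and the 5 genes as dashed lines. The 5 genes were picked as the largest decreases and every list gene lies to their right, and the medians run from −0.76 (late forebrain neuron genes) to 0.65 (proliferating cell markers).

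In bulk libraries, fewer cells of a type and less RNA per cell cannot be told apart, and markers of several cell types moved between the genotypes. Of 12 pan-neuronal markers 11 were called lower and 1 higher, with a median of −0.68, against 21.9% lower and 20.7% higher over all tested genes. Their summed level was 4314 to 4428 CPM in WT and 3288 to 3459 CPM in Fmr1-KO. Several of them, such as Rbfox3, Snap25, Syt1 and Nefm, are also on the late forebrain list. The 10 proliferating cell markers were all called higher, with a median of 0.65 and a summed level of 595.1 to 631.0 CPM in WT and 1011 to 1066 CPM in Fmr1-KO. Of 9 neural progenitor markers 4 were called higher and 1 lower (median 0.20), summing to 2412 to 2427 and 2716 to 2786 CPM. Eomes, a marker of intermediate progenitors, was foremost among them, at 10.5 CPM in WT and 72.8 CPM in Fmr1-KO (log2 fold-change 2.79, adjusted P = 2.35e-15).

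Markers of the excitatory and inhibitory neuron classes were called in both directions, as were tested genes at large, with 21.9% called lower and 20.7% higher. Of 11 excitatory neuron markers 4 were called lower and 5 higher (median −0.01), and the summed levels overlapped, with 909.2 to 918.0 CPM in WT and 892.0 to 919.0 CPM in Fmr1-KO. Of 10 GABAergic interneuron markers 5 were called lower and 5 higher (median −0.04), summing to 820.1 to 848.6 and 877.4 to 959.2 CPM. Within this list Sst and Npy, at −2.53 and −2.43, went against Dlx1 and Dlx2, transcription factors of young interneurons, which rose by log2 fold-changes of 0.46 and 0.59 (adjusted P = 6.77e-10 and 3.01e-10).

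Glial transcripts were present in every library. The depletion that the study describes was of ACSA2-carrying astrocytes and of myelin, and it names no step against microglia or other glia. The calls below can be set beside 21.9% lower and 20.7% higher over all tested genes. The 9 astrocyte markers summed to 5185 to 5317 CPM in WT and 4601 to 4973 CPM in Fmr1-KO, with 4 called lower and 3 higher (median 0.03). All 10 oligodendrocyte lineage markers were called lower (median −0.73), with summed levels of 2346 to 2551 and 1344 to 1448 CPM, and 6 of 7 microglia markers were called lower and 0 higher (median −0.51), with 196.4 to 209.9 and 130.4 to 143.7 CPM. Of 6 tested endothelial and mural markers 3 were called higher and 2 lower (median 0.38), with 77.1 to 85.8 and 94.8 to 100.9 CPM. The 2 lower were Rgs5 and Cdh5, and Cdh5 lost its call without WT replicate 1 (−0.48, adjusted P = 0.0705). Flt1, called higher, did not pass under DESeq2 (0.41, adjusted P = 0.164). With 1 library left out, Flt1 passed only without Fmr1-KO replicate 1 (0.47, adjusted P = 0.0355). Microglia markers called lower numbered 4 to 6 with 1 library left out. Without WT replicate 1, P2ry12 and Cx3cr1 lost their calls (adjusted P = 0.0504 and 0.145). No marker in these lists was at 0 in all 6 libraries. The part of these shifts in the decrease of the 5 genes was not tested.

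The genes whose pattern over the 6 libraries was most like each of the 5 were sought among 10758 other genes with at least 10 CPM, by the Pearson correlation of log2 CPM. For Nwd2 they were Camk2b, Parvb and Setd3, and for Prss12 Dok4, Atp2b2 and Psmd6. For Ddn they were Rbfox3, the gene of the neuronal marker NeuN, Slc17a7 and Tmem178b. Snhg11 was nearest to Sema6a, Elmod1 and Sptbn1, and Nrgn to Tubb4a, Gnb5 and Cd200. All of these correlations were above 0.999, but between 260 genes (Snhg11) and 385 genes (Nrgn) exceeded 0.99, since any gene that differs evenly between the genotypes scores high over 6 points. The amplitudes differed widely, from −0.13 for Setd3 to −2.45 for Slc17a7 on the log2 scale.

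The log2 fold-changes of the 5 genes held their size across the ways the counts were processed. Over all alternatives they ran from −3.95 to −3.54 for Nwd2, from −3.65 to −3.35 for Prss12, from −3.20 to −3.11 for Ddn, from −2.81 to −2.63 for Snhg11 and from −2.79 to −2.63 for Nrgn. The order of Nwd2, Prss12 and Ddn was that of their values in the full set, whereas Snhg11 and Nrgn exchanged places without WT replicate 1, Fmr1-KO replicate 1 or Fmr1-KO replicate 3. Without any single WT replicate the mean of Prss12 was under 10 CPM, so that 4 of the 5 genes remained among the 5 largest decreases.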

How the data were processed

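The authors deposited raw counts per gene name for 6 libraries. PolyA RNA was prepared with a stranded kit, and, with versions as in the submitters' processing notes, reads were demultiplexed with bcl2fastq 2.19.0, aligned to GRCm38.p6 with STAR 2.7.6a and counted with featureCounts (Subread 2.0.1). The study's methods give reverse-stranded counting and name other versions of some of these tools. The authors tested them with DESeq2 1.22.1 (R 3.5.1). Genotypes came from the labels.

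Here all 16976 genes kept by filterByExpr were tested with edgeR 4.0.16 (R 4.3.3; TMM, quasi-likelihood F test, 2-sided, Benjamini-Hochberg, called under 0.05), with genotype as the only term. CPM are TMM-scaled. The code was tested on simulated data. Alternatives were DESeq2 1.42.0, RLE, upper-quartile and library-total scaling, other filters and CPM minimums, a replicate block and each library left out. Coordinates and lengths came from GENCODE M21, which held 98.6% of tested names. Total counts of 30348556 to 35126207 per library limit the precision of genes with few counts.

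The members and lists were chosen with earlier results of these data known. Genes named are the 5 members, Fmr1, ranks 6 to 10 of the same ordering, the 3 genes most like each member, its nearest and overlapping genes, and list members. Ranking required at least 10 CPM on average and no overlap between genotypes. Some genes and a sequence that the rule covers are not reported here.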

Additional observations from a re-analysis of the deposited data

How the results depend on the processing

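Each log2 fold-change compared kept its sign under every alternative. The correlations of deviations between same-numbered libraries lay between −0.03 and 0.03, so little shared deviation was seen. The labels do not say whether same-numbered libraries were prepared together, and these correlations cannot tell. Adding a replicate block gave 3694 lower and 3488 higher calls, against 3725 and 3506 without the block, and 5 of 5 members kept their ranks. The balance of lower and higher calls turned with scaling, to 3517 lower and 3743 higher with upper-quartile scaling and 3212 lower and 4207 higher under library totals alone, and DESeq2 called 3211 lower and 2699 higher. A minimum of 20 CPM left 2 of the 5 members among the 5 largest decreases, and leaving out 1 library left 4 to 5. The number of dendritic mRNAs called higher was 0 under DESeq2 and 0 to 1 with 1 library left out. For endothelial and mural markers called lower it was 1 under a stricter filter, which tests fewer genes, and 1 to 2 with 1 library left out. For the other Snhg genes called higher it was 2 with upper-quartile scaling, 3 with library totals (2 called lower there, as with TMM), 0 under the stricter filter and 1 to 3 with 1 library left out. Low counts in Fmr1-KO limit the precision of Nwd2 and Prss12 most.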
